A study of Mus musculus with 6 samples.

Results

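The genes described here encode the nuclear subunits of oxidative phosphorylation, the mitochondrial machinery that turns electrons from nutrients into ATP. They were chosen by name: every gene symbol of the array's annotation that starts with Nduf, Uqcr, Atp5 or Cox followed by 4 to 8, and the 4 genes Sdha, Sdhb, Sdhc and Sdhd. The rule itself uses names only. The names matched 85 genes, of which 84 had a value among the 20059 genes measured. Of the 85, 35 encode subunits of complex I, 4 of complex II, 7 of complex III, 18 of complex IV and 15 of complex V. The remaining 6 are 2 assembly factors of complex I (Ndufaf1 and Ndufaf2), the supercomplex factor Cox7a2l and 3 genes that carry such a name without encoding a subunit (Atp5s, Atp5sl and Cox4nb). Ndufa4 and its relative Ndufa4l2 were counted with complex IV, where the Ndufa4 protein is now placed.

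The samples were KLS cells, the bone marrow fraction with Kit and Sca-1 and without lineage markers, in which the blood stem cells and multipotent progenitors lie. One group of 3 arrays was from wild-type cells of the mouse. The other group of 3 arrays was from cells labelled Dnmt3a+/-, heterozygous for this DNA methyltransferase gene. The labels give no treatment, age, strain or construct of the altered copy. They do not state that the 3 arrays of a group are 3 animals, so the p-values describe variation among these 6 arrays alone, some of which may be technical.

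Complex I (NADH dehydrogenase) and complex II (succinate dehydrogenase) feed electrons into the chain, complex III (the cytochrome bc1 complex) passes them to cytochrome c, and complex IV (cytochrome c oxidase) hands them to oxygen. The proton gradient built on the way drives complex V, the ATP synthase. Long-term stem cells in the marrow are known for a low reliance on this pathway, which is taken up more strongly as cells leave quiescence. Complexes I, III, IV and V also hold subunits encoded in mitochondrial DNA, and none of the 13 mitochondrial genes was matched to a named probe set here.

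Values are log2 array readings, and a difference is the Dnmt3a+/- mean minus the wild-type mean. Readings of different genes are not amounts of RNA and are not compared with one another. Dnmt3a itself read 8.51, 8.70 and 8.50 on the wild-type arrays and 8.38, 8.20 and 8.20 on the Dnmt3a+/- arrays, a difference of -0.31 (SE 0.12, limma adjusted p = 0.631) with no overlap between the genotypes. Whether its probe sets lie in the altered part of the gene was not checked. The sort marker Kit was at 10.74 ± 0.06 on wild-type arrays and 10.63 ± 0.03 on the others, and Ly6a, which encodes Sca-1, was at 8.48 ± 0.18 and 8.46 ± 0.13 (SD, n = 3). Dnmt3a+/- replicate 2 stood apart from the other arrays, with a mean correlation of 0.904 across genes with the other 5, while the means of those 5 lay between 0.938 and 0.949.

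No respiratory gene differed between the genotypes after adjustment. Of the 84 genes 0 passed an adjusted p of 0.05 (limma over all genes, smallest adjusted p among them 0.631), and over all genes the share that passed was 0%. The differences ran from -0.55 for Atp5sl to 0.25 for Ndufaf2, with a median of -0.07. With an unadjusted p under 0.05 there were 5 genes, all of them lower in Dnmt3a+/- cells: Ndufb4, Atp5e, Cox7a2l, Atp5sl and Atp5s. Over all genes 4.57% met that criterion on the lower side and 2.92% on the higher side, where 0 of the 84 did. In 4 of the 84 genes (4.76%) every Dnmt3a+/- array read below every wild-type array, against 9.05% of all genes. In 0 of the 84 did every Dnmt3a+/- array read above, against 6.74%. The half-width of the 95% confidence interval was 0.38 at the median over the 84 genes, and for 41 of them the whole interval lay within 0.5 of 0.

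More of the genes lay below 0 than above. The difference was below 0 for 59 of the 84 (70.2%), against 54.3% of all genes. Most of these genes are read brightly, and 49 of the 84 were among the brightest 10% of all genes. Over that whole range, 81.1% of 2006 genes had a difference below 0 with a median of -0.12, and 17% had every Dnmt3a+/- array below every wild-type array. The 49 respiratory genes within it had a median of -0.07, with 36 below 0 (73.5%) and 1 that did not overlap (2.04%). The other 35 genes had a median of -0.05, with 23 below 0.

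**Figure D1:**
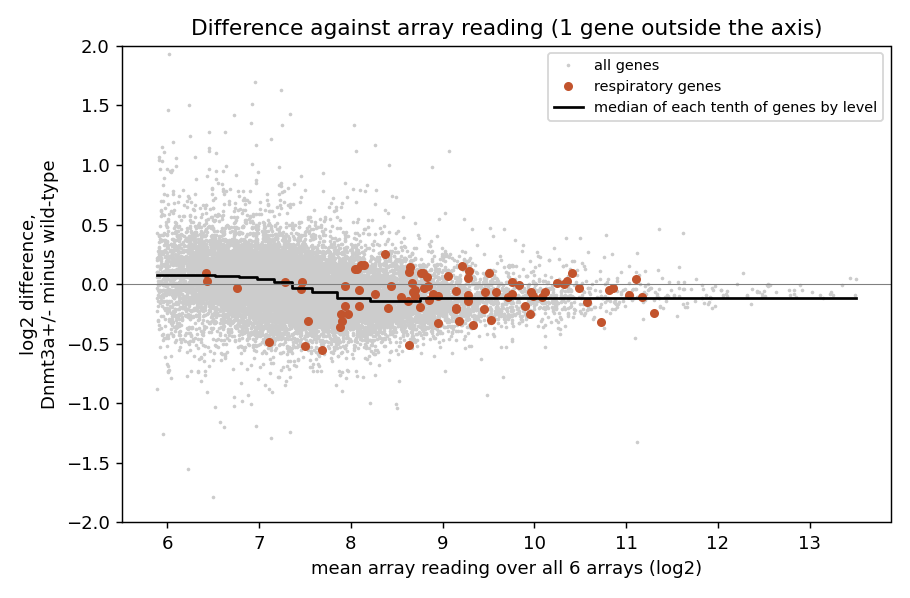
The horizontal axis is the mean log2 reading of a gene over the 6 arrays and the vertical axis the log2 difference between genotypes; grey points are all 20059 genes, with 1 gene outside the axis of ±2, orange points are the 84 respiratory genes and the black line is the median of successive bins of equal gene number by reading. The line goes from 0.08 in the dimmest bin to -0.12 in the brightest, and the orange points lie on both sides of it.

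The lean below 0 went with a single array. On Dnmt3a+/- replicate 2 the 84 genes had a median deviation of -0.31 from their wild-type means, against -0.03 on Dnmt3a+/- replicate 1 and 0.10 on replicate 3. The wild-type arrays lay at -0.06, 0.01 and 0.08. That array held the lowest reading of the 6 for 55 of the 84 genes (65.5%), against 32.5% of all genes and 63.2% of the brightest 10%. Without it, the median difference of the 84 genes was 0.03, and 35 of them (41.7%) lay below 0, against 51.5% of all genes and 64.7% of the brightest 10%. Without it, 2 of the 84 had an unadjusted p under 0.05, against 5.41% of all genes, and 3 read higher on every remaining Dnmt3a+/- array than on every wild-type array, against 10% of all genes.

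The complexes did not all sit equally low on that array. Complex I genes had a median deviation of -0.37 on Dnmt3a+/- replicate 2, complex II -0.37, complex III -0.34 and complex V -0.31. Complex IV stood at -0.07 there, and at -0.13 when its 6 measured tissue isoforms were left out. The same array was the lowest of the 6 for 28 of 35 complex I genes, 6 of 7 complex III genes, 10 of 15 complex V genes, 2 of 4 complex II genes and 5 of 17 complex IV genes. The difference between the complexes was not tested, since genes of a complex are not replicates.

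**Figure D2:**
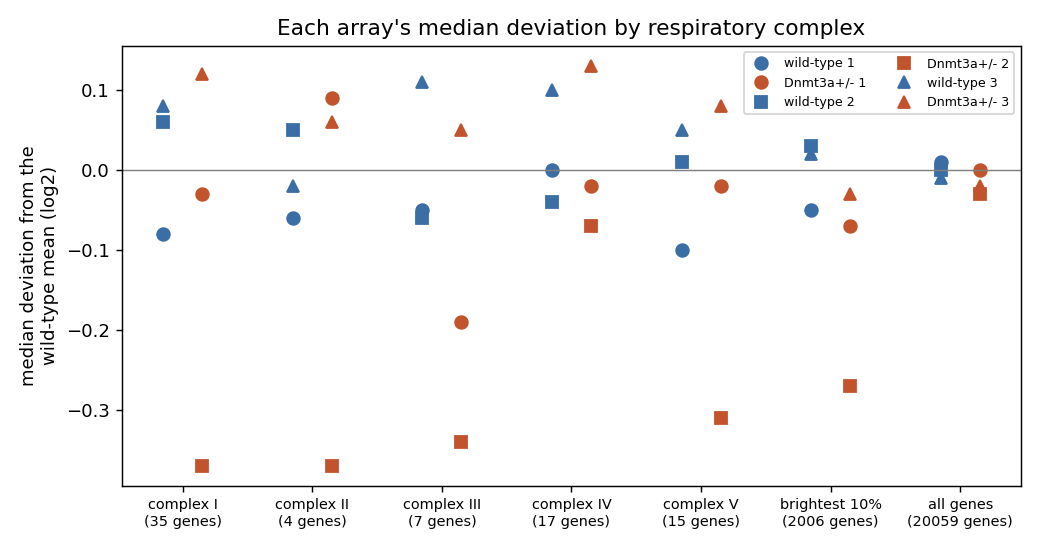
Each point is 1 array's median deviation, in log2 units, from the wild-type mean of every gene of a complex, with wild-type arrays in blue, Dnmt3a+/- arrays in orange and replicate numbers as shapes. Dnmt3a+/- replicate 2 lies at -0.37 in complexes I and II, -0.34 in III and -0.31 in V, but at -0.07 in complex IV, and at -0.27 over the brightest 10% of all genes.

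Marker genes of other cells were summed on every array. Sums of the 5 measured stem and progenitor markers of 6 listed were 5227 to 5619 on wild-type and 4438 to 5043 on Dnmt3a+/- arrays, with 4591 on Dnmt3a+/- replicate 2. The sums were thus lower in the second genotype with no overlap, but each of the 5 genes by itself overlapped. These genes are mostly bright, and 5 of 5 lay below 0 with a median of -0.14. Over the brightest 10% of all genes 81.1% lay below 0, with a median of -0.12. The summed linear intensity of 5 measured erythroid markers of 8 listed was 734 on that array, in a range of 645 to 777 on wild-type and 675 to 734 on Dnmt3a+/- arrays, and the haemoglobin genes Hba-a1 and Hbb-bt were not matched to a value. For the 10 neutrophil markers it was 15091, against 11732 to 17401 in wild-type and 14702 to 21224 in Dnmt3a+/- cells. A sum follows its brightest genes. By gene, 7 of the 10 neutrophil markers lay above 0 and 3 below, with a median of 0.28. Retnlg at 0.98 (SE 0.22) and Mmp8 at 0.64 (SE 0.20), 2 of the 10, read higher with no overlap, against 6.74% of all genes. Sums of the 4 T and NK markers were 408 to 475 in wild-type and 511 to 531 in Dnmt3a+/- cells, and those of the 3 measured B markers of 4 listed were 319 to 403 and 358 to 528, with 531 and 528 on Dnmt3a+/- replicate 2. The T and NK sums were thus higher in Dnmt3a+/- cells with no overlap. By gene, 3 of the 4 lay above 0, Cd4 was at -0.03 and the median was 0.27. Only Cd3e, 1 of the 4, did not overlap, against 6.74% of all genes on the higher side. The 4 genes are mostly dim, with a median percentile of 16.4 by reading, and the dimmest bin of all genes had a median difference of 0.08. The 5 monocyte and macrophage markers gave 920 to 1025 and 952 to 1024, and the 4 megakaryocyte markers 595 to 864 and 537 to 839. By gene, 4 of the 5 monocyte and macrophage markers lay above 0 and 1 below. Csf1r at -0.73 (SE 0.19) was lower and Adgre1 at 0.42 (SE 0.15) higher, each with no overlap, against 9.05% and 6.74% of all genes. The part of other cells in the respiratory genes' values was not tested. In a bulk sample fewer cells of a type and less RNA per cell cannot be told apart.

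Complex I is the largest of the complexes, and its genes centred near 0. Of 35 subunit genes 26 lay below 0, with a median difference of -0.07, and without Dnmt3a+/- replicate 2 the median was 0.05 with 12 below 0. The core subunits, most of which carry the flavin or iron-sulphur clusters, were represented by 6 genes with a median of -0.04. Ndufs1, the largest of them, read 7.77, 8.17 and 8.08 on wild-type arrays, against 7.93, 7.45 and 7.91 on Dnmt3a+/- arrays, a difference of -0.25 (SE 0.17). The genotypes overlapped, and the low Dnmt3a+/- reading was that of replicate 2, without which the difference was -0.09. Ndufv1, which binds NADH, read 7.99, 8.88 and 8.62 against 8.33, 7.89 and 8.67, with a difference of -0.20 (SE 0.27) that was 0.00 without Dnmt3a+/- replicate 2. The wild-type arrays alone spanned most of that range, and Dnmt3a+/- replicates 1 and 3 lay within it. Ndufs7, which holds the last iron-sulphur cluster before ubiquinone, differed by 0.15 (SE 0.18).

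Among the accessory subunits of complex I, which surround the core, 29 genes had a median of -0.08. The Ndufb genes, most of which sit in the membrane arm that pumps protons, had a median of -0.16 with 9 of 10 below 0. The 13 Ndufa genes had a median of -0.01 with 7 below 0. Without Dnmt3a+/- replicate 2 the Ndufb genes had a median of 0.00 with 5 of 10 below 0, so that their lower position also came with that array.

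Ndufb4, an accessory subunit of the membrane arm, had the smallest p of all 84 genes. It read 7.79, 7.63 and 7.87 on the wild-type and 7.11, 7.33 and 7.27 on the Dnmt3a+/- arrays. Every Dnmt3a+/- array was below every wild-type array, replicate 2 was the highest of the 3, and the difference was larger without that array (-0.57). The difference of -0.52 (SE 0.12, 95% confidence interval -0.80 to -0.25, fold 0.696) had a limma adjusted p of 0.631 over all genes and an exact two-sided permutation p of 0.1, the smallest that 3 against 3 arrays allow. It rested on 1 probe set, the only one named Ndufb4.

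The next largest negative differences in complex I were those of Ndufc1 and Ndufb3. Ndufc1 read 8.23, 7.47 and 8.47 against 8.01, 6.66 and 8.43, with a difference of -0.36 (SE 0.45) and the widest interval of the 84, from -1.39 to 0.68. It was low on replicate 2 of both genotypes, and without Dnmt3a+/- replicate 2 its difference was 0.16. Its 2 probe sets differed by -0.81 and 0.10. Ndufb3 read 9.55, 9.34 and 9.59 against 9.52, 8.63 and 9.32, a difference of -0.34 (SE 0.22), and -0.07 without Dnmt3a+/- replicate 2. On the other side, Ndufa11 differed by 0.16 (SE 0.13) and Ndufa3 by 0.11 (SE 0.18). Ndufa12 was among the steadiest by gene, at 9.18 ± 0.05 on wild-type arrays and 9.12 ± 0.04 on Dnmt3a+/- arrays (SD, n = 3), with an interval from -0.29 to 0.18. Its probe sets were less even: a dim one differed by -0.71 (SE 0.26) and the other 5 by -0.02 to 0.18.

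The 7 probe sets of Ndufa8, an accessory subunit, had differences from -0.55 to -0.08, all below 0. The gene read 9.09, 8.97 and 9.28 on wild-type arrays, against 8.98, 8.44 and 8.91 on Dnmt3a+/- arrays, so the genotypes overlapped only between the lowest wild-type and the highest Dnmt3a+/- array. The difference was -0.33 (SE 0.17, limma adjusted p = 0.631), and -0.17 without Dnmt3a+/- replicate 2.

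Of the assembly factors of complex I that carry a Nduf name, Ndufaf2, which helps complete the peripheral arm, had the highest difference of all 84 genes, at 0.25 (SE 0.14). It read 8.02, 8.39 and 8.35 on wild-type arrays, against 8.35, 8.56 and 8.58 on Dnmt3a+/- arrays. The genotypes overlapped, since Dnmt3a+/- replicate 1 lay within the wild-type range. Of its 6 probe sets 1 was below 0. Ndufaf1, an assembly factor of the membrane arm, differed by -0.31 (SE 0.22), and by -0.10 without Dnmt3a+/- replicate 2.

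Complex II, whose 4 subunits are all encoded in the nucleus, showed no common direction, with a median of -0.03 and 2 of 4 genes below 0. Sdha, the flavoprotein that oxidises succinate, read 9.45, 9.74 and 9.48 on wild-type arrays, against 9.64, 8.95 and 9.43 on Dnmt3a+/- arrays, a difference of -0.21 (SE 0.19). The low reading was replicate 2, and without it the difference was -0.02. Sdhb, the iron-sulphur subunit, differed by -0.08 (SE 0.26), or 0.23 without that array, with 8.92, 8.85 and 9.02 against 8.97, 8.23 and 9.35. The membrane anchors Sdhc and Sdhd differed by 0.01 (SE 0.12) and 0.06 (SE 0.16). For Sdhc the filter on dim probe sets mattered, and its difference was -0.27 with every probe set included.

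Complex III was the complex with all of its measured genes below 0, 7 of 7, and a median of -0.14, although Uqcrc2 was at 0.03 with the median of its probe sets. Without Dnmt3a+/- replicate 2 the median was -0.07 and 4 of 7 lay below 0. The largest difference was that of Uqcrfs1, the Rieske iron-sulphur protein that passes electrons on towards cytochrome c. It read 8.08, 7.97 and 8.13 on wild-type arrays, against 7.78, 7.46 and 8.01 on Dnmt3a+/- arrays. The difference was -0.31 (SE 0.15, 95% confidence interval -0.66 to 0.05, limma adjusted p = 0.631), and 6 of its 6 probe sets lay below 0. Without Dnmt3a+/- replicate 2 it was -0.16. Dnmt3a+/- replicate 3 overlapped the wild-type arrays.

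The core proteins Uqcrc1 and Uqcrc2 both differed by -0.14 (SE 0.14 and 0.13), and by -0.08 and -0.07 without Dnmt3a+/- replicate 2. Uqcrc1 read 8.50, 8.73 and 8.84 against 8.50, 8.41 and 8.72, and Uqcrc2 read 9.26, 9.30 and 9.45 against 9.15, 9.06 and 9.39. Uqcrh, the hinge protein that holds cytochrome c1, differed by -0.15 (SE 0.13). The small subunits Uqcrb, Uqcr (now Uqcr11) and Uqcrq lay at -0.08, -0.07 and -0.05. Cyc1, which encodes cytochrome c1 itself and falls outside the naming rule, differed by -0.12 (SE 0.15).

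Complex IV had a median of 0.03, with 11 of 17 measured genes above 0. Of its 6 measured tissue isoforms 5 lay above 0. The other 11 genes were split, with 6 above 0, 5 below and a median of 0.02. The catalytic core of this complex is encoded in mitochondrial DNA, so these genes are its nuclear regulatory and structural subunits. Cox4i1, the regulatory subunit found in most tissues, read 10.93, 11.11 and 11.19 on wild-type arrays, against 10.99, 10.76 and 11.21 on Dnmt3a+/- arrays, a difference of -0.09 (SE 0.15). Cox5a, another nuclear subunit, read 9.83 to 10.16 on wild-type arrays and 9.26 to 10.18 on Dnmt3a+/- arrays, lowest on replicate 2, with a difference of -0.18 (SE 0.23) that was 0.10 without Dnmt3a+/- replicate 2. Cox6a1 at 0.04 (SE 0.12), Cox6b1 at -0.03 (SE 0.11) and Ndufa4 at -0.05 (SE 0.13) lay close to 0. The Cox6b1 arrays spanned 10.44 to 10.55 in wild-type and 10.37 to 10.61 in Dnmt3a+/- cells.

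At the ends of complex IV were Cox7b at -0.25 (SE 0.15), or -0.16 without Dnmt3a+/- replicate 2, and Cox5b at 0.16 (SE 0.15). Cox7b read 9.84, 10.17 and 10.22 against 9.88, 9.64 and 9.94, and the genotypes overlapped. Cox5b read 8.16, 7.84 and 8.18 against 8.31, 8.0 and 8.37, on 1 probe set, and its difference was 0.28 without Dnmt3a+/- replicate 2. Cox7a2 and Cox8a lay at 0.07 (SE 0.19) and 0.09 (SE 0.13).

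Several complex IV subunits exist in isoforms that are made in particular tissues, such as Cox6a2 and Cox8b in heart and skeletal muscle and Cox6b2, Cox7b2 and Cox8c in testis. None of the 4 probe sets of Cox7b2 passed the filter on dim readings, the brightest of them lying at 5.07, so this gene has no value. Cox4i2, the isoform tied to low oxygen, read 7.53, 7.28 and 7.56 on wild-type arrays, against 7.48, 7.45 and 7.50 on Dnmt3a+/- arrays, a difference of 0.02 (SE 0.12). Cox6b2 and Cox8c both lay at 0.13 (SE 0.11 and 0.15), and Cox6a2 at -0.18 (SE 0.24). The signs of Cox6b2 and Cox8c were not stable: Cox6b2 was at -0.12 when only probe sets above the 75th percentile of all readings were used, and Cox8c at -0.20 with no filter.

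Cox7a2l, which helps join complexes III and IV into supercomplexes, read 11, 10.84 and 10.84 on wild-type arrays, against 10.56, 10.45 and 10.72 on Dnmt3a+/- arrays. Every Dnmt3a+/- array was below every wild-type array, with a difference of -0.32 (SE 0.12, limma adjusted p = 0.631). All 6 of its probe sets lay below 0, by unequal amounts. A single dim probe set went from a mean of 7.31 to 6.14, a difference of -1.17 (SE 0.32), and another from 10.70 to 10.25. The other 4, with means between 10.90 and 12.78, differed by -0.12 to -0.02. With the median of its probe sets in place of the mean, Cox7a2l differed by -0.02.

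In complex V, 13 of 15 genes lay below 0 with a median of -0.10, and without Dnmt3a+/- replicate 2 the median was 0.03 with 6 below 0. The F1 head, where ATP is made, was represented by 5 genes, Atp5a1, Atp5b, Atp5c1, Atp5d and Atp5e, all below 0 with a median of -0.11, and all lowest on Dnmt3a+/- replicate 2. Atp5b, the catalytic beta subunit, read 11.25, 11.58 and 11.43 on wild-type arrays, against 11.32, 10.86 and 11.38 on Dnmt3a+/- arrays. Its difference of -0.24 (SE 0.17) was -0.07 without that array, and 13 of its 14 probe sets lay below 0. Atp5a1, the alpha subunit, read 9.91, 10.28 and 10.22 against 10.18, 9.74 and 10.16, with a difference of -0.11 (SE 0.16) that was 0.04 without that array.

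The ring of c subunits, which turns as protons pass, is built from 3 genes whose proteins share the same mature form. Atp5g1 read 8.71, 8.11 and 8.89 against 8.77, 8.49 and 8.86, a difference of 0.14 (SE 0.21). Atp5g2 read 11.20, 11.23 and 11.25 against 11.10, 10.90 and 11.36, a difference of -0.11 (SE 0.14). Atp5g3 read 10.78, 11.02 and 10.83 against 10.78, 10.81 and 10.97, a difference of -0.03 (SE 0.12). The genotypes overlapped for all 3. Of the stalk genes, Atp5f1 (now Atp5pb) lay at -0.19 (SE 0.14), or -0.07 without Dnmt3a+/- replicate 2, and Atp5o at 0.03 (SE 0.12), and Atp5k, of the membrane part, at 0.00 (SE 0.17).

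Atp5e, the epsilon subunit at the foot of the F1 head, had the largest difference in complex V. It read 8.77, 8.82 and 9.05 on wild-type arrays, against 8.48, 8.21 and 8.42 on Dnmt3a+/- arrays, with no overlap. The difference was -0.51 (SE 0.13, 95% confidence interval -0.81 to -0.21, fold 0.702, limma adjusted p = 0.631), the exact permutation p was 0.1, and without Dnmt3a+/- replicate 2 it was -0.43. The 12 probe sets behind this value fell into separate ranges. In 5 bright ones, with wild-type means of 10.24 to 12.61, the differences were 0.05 to 0.15. In 7 dim ones, with wild-type means of 6.62 to 7.29, they were -1.20 to -0.50. The gene value thus joined bright probe sets with no lower reading to dim ones with a lower reading, and with probe sets above the 75th percentile alone Atp5e differed by 0.07.

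**Figure D3:**
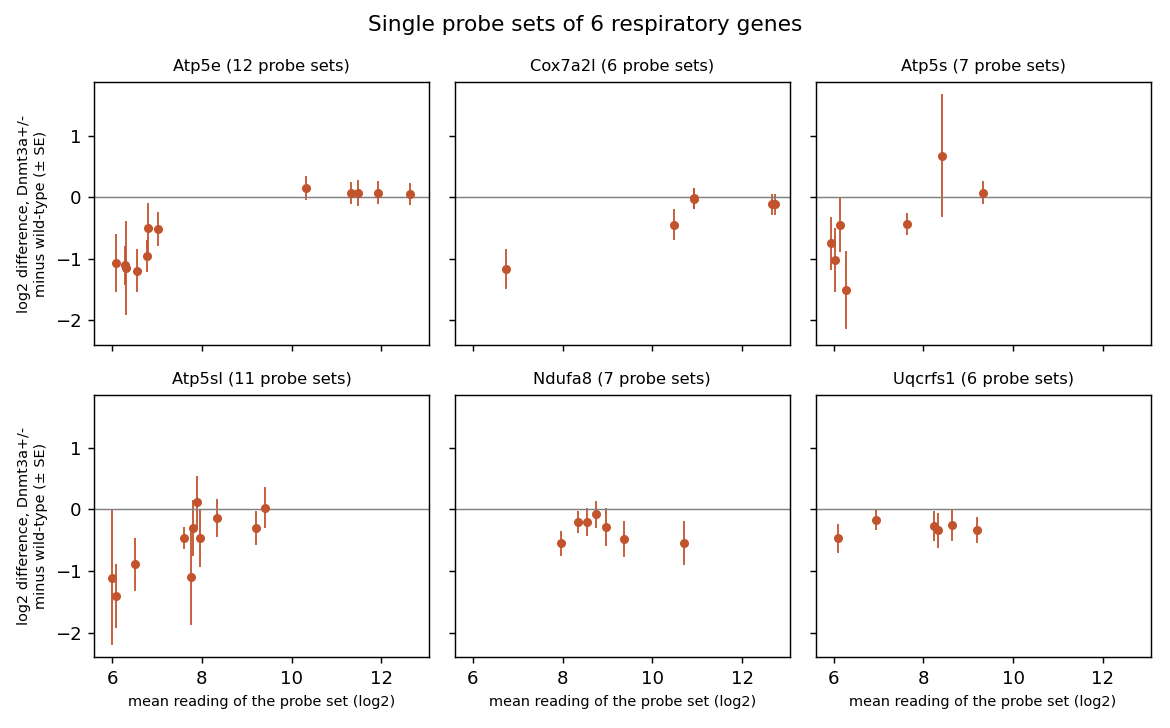
Each panel shows a gene and each point 1 of its probe sets, with its mean log2 reading over both genotypes on the horizontal axis and its log2 difference with the standard error on the vertical axis. In Atp5e the 5 bright probe sets lie at 0.05 to 0.15 and the 7 dim ones at -1.20 to -0.50. All 6 probe sets of Cox7a2l lie below 0, the dim one at -1.17 and the bright ones at -0.45 to -0.02, as do all 7 of Ndufa8 and all 6 of Uqcrfs1.

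Atp5sl (now Dmac2), an assembly factor of the membrane arm of complex I, and its relative Atp5s (now Dmac2l) had differences of similar size. Atp5sl read 8.24, 7.79 and 7.84 on wild-type arrays, against 7.61, 6.92 and 7.70 on Dnmt3a+/- arrays, a difference of -0.55 (SE 0.22, limma adjusted p = 0.631) with no overlap, and -0.30 without Dnmt3a+/- replicate 2. Of its 11 probe sets 9 lay below 0, and 3 dim ones held differences of -1.41 to -0.89. Atp5s read 7.01, 7.53 and 7.52 against 7.19, 6.84 and 6.55, a difference of -0.49 (SE 0.20), with wild-type replicate 1 inside the Dnmt3a+/- range. Its 4 dim probe sets differed by -1.51 to -0.46 and its 3 brighter ones by -0.44, 0.07 and 0.67, and with probe sets above the 75th percentile alone the gene was at 0.10. Cox4nb (now Emc8), which encodes a protein complex member of the endoplasmic reticulum, was at -0.04 (SE 0.13).

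**Figure D4:**
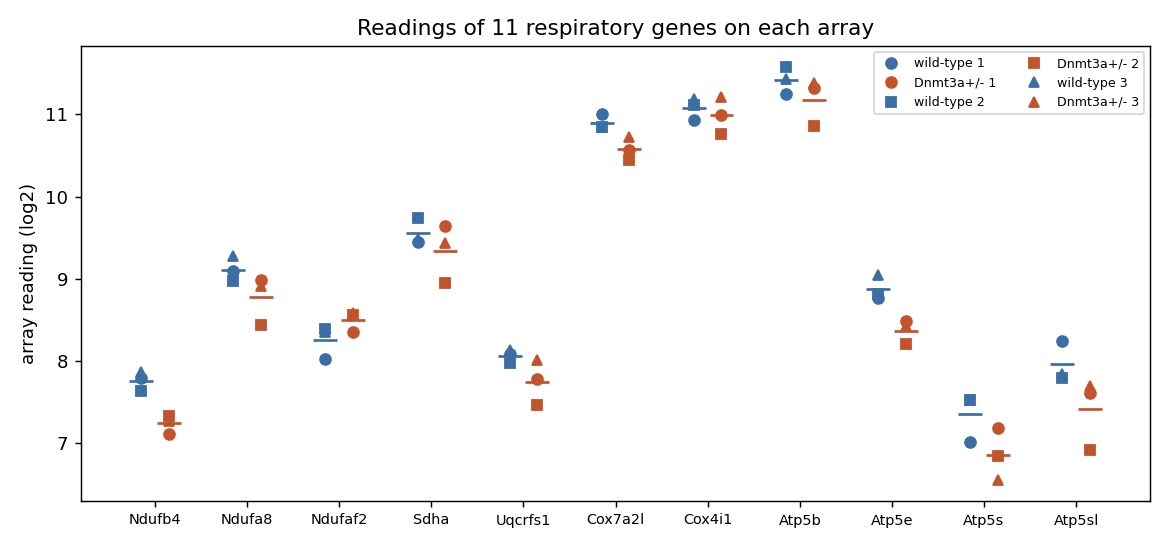
Points are the log2 readings of 11 genes on the 3 wild-type arrays (blue) and the 3 Dnmt3a+/- arrays (orange), shapes mark the replicate numbers and short lines the group means. Ndufb4, Cox7a2l, Atp5e and Atp5sl are the genes without overlap. The square of Dnmt3a+/- replicate 2 is the lowest point in Cox7a2l, Atp5e and Atp5sl, and also in Sdha, Uqcrfs1, Ndufa8, Cox4i1 and Atp5b.

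**Figure D5:**
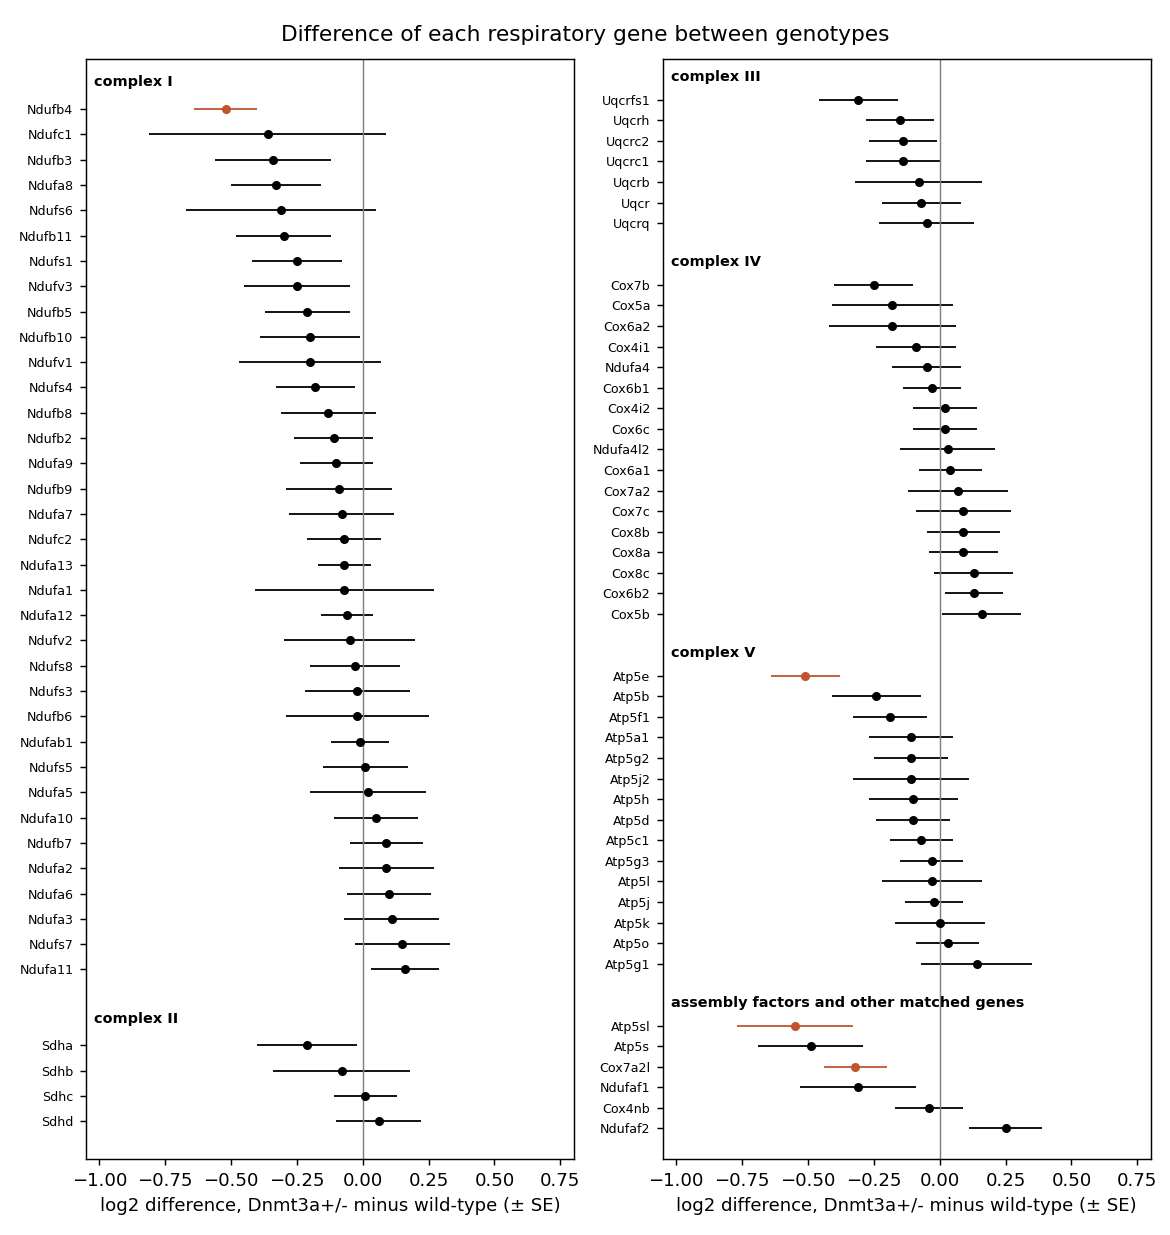
Points are the log2 differences of the 84 genes with their standard errors, ordered within each complex, with genes whose genotypes did not overlap in orange. The orange points are Ndufb4, Atp5e, Atp5sl and Cox7a2l, and every other gene overlapped between genotypes.

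Single probe sets, like the genes, gave no call after adjustment. Of 681 probe sets of the 84 genes that passed the filter, 0 passed over the 628415 tested (limma, smallest adjusted p = 0.799). The difference was below 0 in 443 (65.1%), against 50.3% of the 628415, of which 221209 carried exactly 1 symbol. Above the 75th percentile of all readings, 65.3% of 559 lay below 0, against 61.6% of all named probe sets there. Between the median and that percentile, 63.9% of 122 did, against 52.2% of all named probe sets there. Of the 681, the genotypes did not overlap in 40 on the lower side (5.87%) and 10 on the higher side (1.47%). The shares of all probe sets were 6.1% and 6.31%, but most of those carried no single symbol. By gene, where every value comes from named probe sets, the lower share was 4.76% against 9.05%. Among the 559 probe sets above the 75th percentile of all readings, 25 did not overlap on the lower side (4.47%, against 8.46% of all named probe sets in that range). Among the 122 between the median and that percentile, 15 did (12.3%, against 6.23% of all named probe sets in that range). Atp5e alone held 4 of these 15 and Ndufv3 held 2. Of 51 genes with probe sets in both ranges, 30 had the lower median difference in the dim range, with a median gap of -0.02.

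The promoters of these genes were searched for letters that the naming rule did not use. RefSeq windows on GRCm38.p6, from 250 bases before to 50 after a gene's start, were matched for 69 of the 84 genes, in 75 windows. They are rich in CG pairs, with a median of 20 per window against 7 in all 32851 windows and 13 in 21263 windows of protein-coding genes. The core of the site of NRF1, a regulator of respiratory genes, was searched as GCATGCGC on both strands and occurred in 10 of the 75 windows (13.3%), against 2.71% of all windows and 3.52% of those of protein-coding genes. The YY1 core AAGATGGC occurred in 12 (16%), against 2.75% and 3.05%, and the ETS core CCGGAAG, which the factor GABP binds, in 17 (22.7%), against 8.86% and 11.6%. The NRF1 core nearly equals its own reverse, so a match on both strands can be the same site, and matches of the different cores were not required to lie apart.

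The stretches below show the NRF1 core, in capitals, in a gene each of complexes II and IV and in a pair from complexes I and V, and the ETS core in Atp5e, whose window holds neither other core. The ETS match in Atp5e lies on the opposite strand, so its capitals read CTTCCGG. Each is written along the gene's own strand, with up to 20 bases on either side and none past the start of the gene.
Sdhb, chr4:140961197-140961244, plus strand: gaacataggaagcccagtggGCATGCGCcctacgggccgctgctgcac
Cox6a1, chr5:115349091-115349138, minus strand: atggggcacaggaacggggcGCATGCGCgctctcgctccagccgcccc
Ndufa11, chr17:56717684-56717731, plus strand: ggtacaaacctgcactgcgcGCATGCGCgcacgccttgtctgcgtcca
Atp5g2, chr15:102671060-102671107, minus strand: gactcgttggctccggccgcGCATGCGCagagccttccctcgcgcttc
Atp5e, chr2:174464177-174464223, minus strand: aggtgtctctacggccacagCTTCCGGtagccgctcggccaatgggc
The 10 genes with the NRF1 core had a median difference of -0.05 and the 59 without it one of -0.07. With the YY1 core the median was -0.13 over 11 genes, and -0.07 over the other 58. With the ETS core it was -0.03 over 17 genes, and -0.10 over the other 52. A match says only that these letters are in the window.

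Other genes of mitochondrial respiration and related functions were read in the same way. None of them passed an adjusted p of 0.05 (limma), and the medians of their 7 lists lay between -0.14 and -0.09. Without Dnmt3a+/- replicate 2 those medians lay between -0.08 and 0.04. Of 32 measured assembly factors of complexes II to V, 24 lay below 0, and without that array 15 did, with a median that went from -0.12 to 0.01. An unadjusted p under 0.05 was met by 3 of the 32, all lower, against 4.57% of all genes on the lower side: Uqcc1 at -0.62 (SE 0.22), which serves complex III, and Taco1 at -0.49 (SE 0.17) and Cox19 at -0.40 (SE 0.17), which serve complex IV. Of 7 further assembly factors of complex I, 6 lay below 0, and Tmem126b was at -0.52 (SE 0.16). Tmem126b read 7.38, 7.79 and 7.50 on wild-type arrays, against 7.30, 6.86 and 6.96 on Dnmt3a+/- arrays, with no overlap. Uqcc1 read 7.13, 7.18 and 7.44 against 7.09, 6.17 and 6.63, also with no overlap. On the lower side 1 of the 7 and 4 of the 32 did not overlap, against 9.05% of all genes. Without Dnmt3a+/- replicate 2 these assembly factors stayed at -0.43 for Tmem126b, -0.43 for Taco1 and -0.40 for Uqcc1.

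Enzymes of the tricarboxylic acid cycle, which supply the electrons, had 13 of 15 members below 0 with a median of -0.14 and 0 with an unadjusted p under 0.05. Of these 15, 12 were lowest on Dnmt3a+/- replicate 2, and without it the median was -0.05 with 10 below 0. Among 15 regulators of mitochondrial biogenesis 12 lay below 0. Of the 15 regulators 2 did not overlap on the lower side, against 9.05% of all genes. One of them, Gabpb1, a subunit of GABP, read 7.89, 8.20 and 8.25 on wild-type arrays, against 7.71, 7.73 and 7.83 on Dnmt3a+/- arrays. Its difference was -0.35 (SE 0.13), and -0.34 without Dnmt3a+/- replicate 2. Nrf1 was at -0.27 (SE 0.17), Gabpa at -0.07 (SE 0.11) and Tfam, which packs and transcribes mitochondrial DNA, at -0.11 (SE 0.15), and without that array they lay at -0.09, -0.03 and 0.05. Among 14 carrier and membrane genes Vdac3, a pore of the outer membrane, was at -0.38 (SE 0.14). Among 9 genes of defence against superoxide and peroxide, the catalase gene Cat was at -0.31 (SE 0.13). Without that array Vdac3 and Cat lay at -0.27 and -0.19. Neither of them overlapped between genotypes, and the list medians were -0.09 for both. On the lower side 2 of the 14 and 3 of the 9 did not overlap. The share was 9.05% of all genes and 17% of the brightest 10%, where Vdac3 and Cat both lie.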

How the data were processed

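Total RNA of KLS cells, amplified by a whole-transcript method and labelled with biotin, was read on 6 arrays, 3 per genotype, grouped by the labels. Per the submitters' processing notes the authors used RMA in Partek, and they deposited normalized linear intensity values from 1.84 to 22239 for 1256831 probe sets. Their versions, the settings and a build were not given in the sources used here. The number of arrays limits precision. Log2 was taken with no pseudocount. Probe sets with exactly 1 symbol (318760) were named through the platform's annotation, which can be old, and older symbols of genes outside the rule were updated through RefSeq (GRCm38.p6). A gene's value was the mean of its probe sets whose overall mean exceeded the median of 5.89, with 1 to 21 (median 7) per respiratory gene. At that edge, probe sets at 5.92 (Ndufs6) and 5.93 (Atp5s) were kept, and those at 5.87 (Atp5f1) and 5.86 (Atp5g1) were not. Probe sets with several symbols (6684) were left out. Probe sequences were not used here, so readings shared between close relatives or pseudogenes of these genes were not checked.

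The groups were tested by limma 3.58.1 (R 4.3.3) over all 20059 genes, with Benjamini-Hochberg adjustment and no covariate. The fit was also tried on simulated data with independent noise for each gene. Those data lack the low readings that many genes shared on Dnmt3a+/- replicate 2. Gene groups are described by counts and medians. In each complex and among its assembly factors the genes named are the 3 lowest, the 3 highest, those with an unadjusted p under 0.05 and key subunits set by role, with up to 3 of each other list with an unadjusted p under 0.05; a few more (Ndufa8, Ndufa12, Gabpa, Nrf1, Tfam, Cyc1) were picked after their values were seen. The members and lists were chosen with earlier results of these data known. Alternatives were other normalizations, filters, summaries, variance models, weights, a replicate block and leaving out each array; leaving out Dnmt3a+/- replicate 2 was also tabulated by complex after the data were seen.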

Additional observations from a re-analysis of the deposited data

How the results depend on the processing

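No respiratory gene passed an adjusted p of 0.05 under any alternative tried (limma, smallest adjusted p among them 0.311 with array weights and 0.495 to 0.903 with an array left out). The median difference of each complex moved by less than the spread between arrays under cyclic loess, a second quantile normalization, both other filters, the median of probe sets, the block, the variance trend, array weights and grouping by symbol prefix. Without single arrays it ran from -0.19 to 0.03 for all genes, -0.20 to 0.05 for complex I, -0.14 to 0.08 for II, -0.23 to -0.07 for III, -0.05 to 0.08 for IV and -0.17 to 0.03 for V. The number below 0 ran from 35 to 72, the number without overlap from 4 to 15 on the lower and 0 to 3 on the higher side (fewer arrays overlap less often, and 12.5% to 17.2% of all genes were then apart on the lower side and 9.76% to 15.5% on the higher side), the number with an unadjusted p under 0.05 from 2 to 7 (4.61% to 9.61% of all genes), and the number past adjustment was 0 each time. The lower side without overlap held 14 genes without wild-type replicate 1, 10 without wild-type replicate 2, 8 without Dnmt3a+/- replicate 1 and 15 without Dnmt3a+/- replicate 3; 2 genes had an unadjusted p under 0.05 without wild-type replicate 3 or Dnmt3a+/- replicate 2. That number with an unadjusted p was 1 with only probe sets above the 75th percentile (7.34% of all genes) and 3 with the replicate block (6.35%), and 1 gene read higher without overlap with the median of probe sets (6.07%); the causes were not tested. With that filter Atp5e turned to 0.07 and Atp5s to 0.10, since their dim probe sets were then left out. Same-numbered arrays correlated at -0.0475, -0.091 and 0.113 in their deviations, and differently numbered arrays at -0.165 to 0.174. So few values cannot show whether the numbers pair the arrays. With the replicate block 0 of all genes passed adjustment, the same number as without it. Of 48 named genes 28 changed sign under some alternative, and of their 672 values 659 moved by less than 1 SD. The precision is limited by 3 arrays per genotype.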
